A study of Mus musculus with 8 samples.

Results

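The genes described here are 9 genes of the thermogenic program, Ucp1, Cidea, Dio2, Ppargc1a, Prdm16, Elovl3, Cox8b, Cox7a1 and Cpt1b, measured in isolated white adipocytes. They were chosen by their gene symbols among the 30387 genes of the deposited expression table, and all 9 had a line in it. Brown adipocytes burn fuel to make heat, and white fat depots can acquire some beige cells that do the same. The central step is uncoupling protein 1, which lets protons return to the mitochondrial matrix without making ATP, and the program around it supplies fatty acids, respiratory capacity, active thyroid hormone and the transcription factors that maintain it. The epididymal depot of the mouse is a typical white depot in which this program is normally weak.

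Epididymal adipocytes were isolated from wild-type mice (WT, littermates) and from mice named Ad-Yap/Taz-KO (knockout), which are Yap fl/fl and Taz fl/fl and carry Adipoq-Cre, a constitutive Cre driven by the adiponectin promoter, so that both genes are deleted wherever that promoter is active, brown and beige adipocytes included. The mice ate a standard diet (SD, normal chow in the labels) or a high-fat diet (HFD) for 4 weeks, from the age of 5 weeks by the description of the series and of 6 weeks by the study's methods. Each of the 4 groups had 2 libraries, 1 per mouse. Total RNA was depleted of ribosomal RNA and sequenced from a stranded kit as single reads of 75 bases, and the values are normalized counts per gene, that is, reads on the exons of a gene divided by a size factor of the library and rounded to whole numbers.

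The libraries held between 14.0 and 22.3 M reads on genes, 1 read was worth between 0.795 and 1.13 normalized counts, and a value of 0 still allows 3 reads, or up to 2.39 to 3.40 normalized counts depending on the library. Wwtr1, the gene of TAZ, lay between 4743 and 7121 normalized counts in WT and between 1957 and 2707 in knockout adipocytes (4 libraries each), with a log2 fold change of -1.24 on SD (adjusted p = 0.00097) and -1.56 on HFD (adjusted p = 3.1e-05). Yap1 lay between 2333 and 2776 in WT and between 1549 and 2068 in knockout libraries, and was called on SD alone (log2 fold change -0.71, adjusted p = 0.024; -0.42 and 0.059 on HFD). The WT HFD libraries differed little from each other. In genes of 1000 to 5000 reads their squared difference was 5.87 times the Poisson expectation, against 27.9, 58.0 and 72.0 times in the other pairs. For this reason the value of each is printed in place of a mean with its standard deviation, and each call was also tested with them averaged to 1 sample. All 8 defining adipocyte markers, such as Adipoq and Plin1, were detected, and their sum was 193868 and 105559 normalized counts in the knockout libraries on HFD and between 259294 and 338610 in the other 6. The sum hides opposite moves by diet, since in WT mice 1 of the 8 was called higher and 1 lower on HFD. Cfd, the largest part of the sum on SD, had 112117 and 115512 in the WT SD and 44882 and 44048 in the WT HFD libraries. Macrophage markers summed to between 1978 and 4324 in WT libraries and to between 14394 and 26714 in knockout libraries. In such preparations, fewer cells of a type and less RNA per cell cannot be told apart.

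The thermogenic genes ranged widely in level in WT adipocytes. Per kilobase of exon, which allows levels to be compared between genes, Cox8b was the highest on SD in WT adipocytes, with a mean of 111 normalized counts per kb, above 73.8% of 17785 protein-coding genes. Cox7a1 followed with 32.7, Ppargc1a with 25.6, Prdm16 with 20.3 and Ucp1 with 12.5 per kb, and Cidea, Dio2 and Cpt1b had 6.73, 4.21 and 1.19 per kb. Ucp1 thus stood above 36.6% of coding genes, and Elovl3 was listed at 0. The spread between the mice was wide for several genes on this scale. Cox8b had 197 and 25.0 normalized counts per kb in the WT SD libraries, so that its lower value fell under the 28.0 and 37.4 of Cox7a1, and the order of these neighbours was not fixed. Cidea at 2.69 and 10.8 per kb and Dio2 at 6.36 and 2.06 per kb overlapped as well. On HFD, knockout adipocytes had Cox8b at 979 per kb, above 97.7% of coding genes, Cox7a1 at 90.7 and Cidea at 83.4, whereas Ucp1 had 25.4 per kb, above 44.4% of coding genes. Cox8b was the member with the highest mean per kb in each of the 4 groups.

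**Figure D1:**
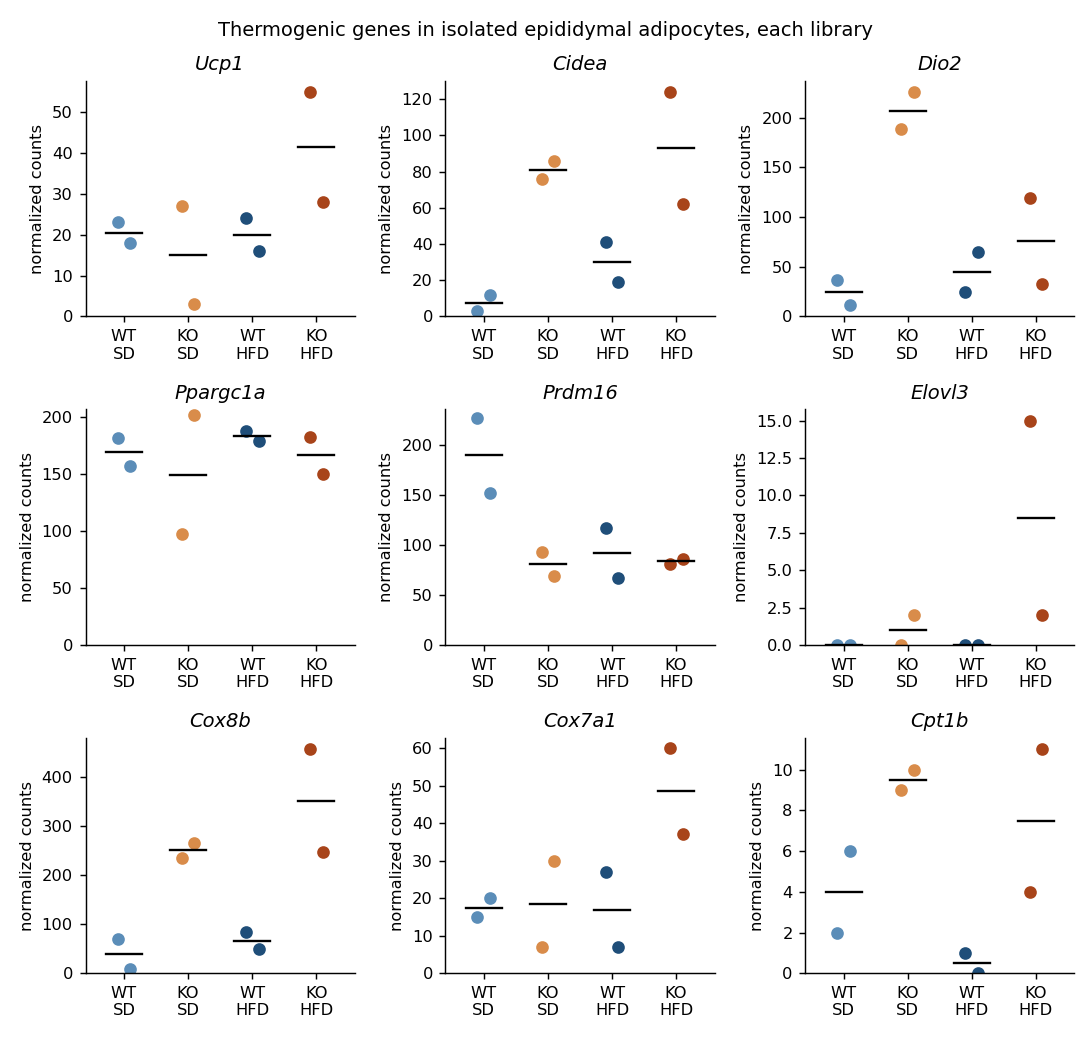
Normalized counts (y axis, linear, a separate scale for each gene) of the 9 thermogenic genes in each of the 8 libraries. Points are libraries, lines are group means. Cidea, Dio2 and Cox8b are higher in both knockout libraries on SD than in both WT libraries on SD, and Elovl3 is at 15 or fewer in every library.

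Members of this program are known targets of cAMP signalling and of nuclear receptors, and YAP and TAZ act through TEAD factors. The RefSeq promoter table holds 6 of the 9 genes (Ucp1, Dio2, Ppargc1a, Prdm16, Cox8b and Cox7a1; GRCm38.p6). Cidea, Elovl3 and Cpt1b have no entry in it. The 250 bases before the annotated start were searched on both strands for 5 sets of letters: GGAATG, the core of TEAD motifs (in 12.6% of 32851 promoters of this length), TGACGTCA, the full cAMP response element (1.55%), TGACG, its shorter core, which also lies inside the full element (17.8%), TCAAGGTCA of the estrogen-related receptors (0.387%), and AGGTCA repeated after 1 base of any kind, bound by PPAR with its partner (0.0335%). The promoters of Cox8b and Dio2, whose transcripts rose in knockout adipocytes on SD, are shown beside that of Ucp1, which was not called. They are printed 5′ to 3′ on the strand of the gene, in lower case with the matches in capitals. The Dio2 sequence lies before a RefSeq start that is 600 bases upstream of the start in the deposited table.
Cox8b, chr7:140900447-140900696, minus strand: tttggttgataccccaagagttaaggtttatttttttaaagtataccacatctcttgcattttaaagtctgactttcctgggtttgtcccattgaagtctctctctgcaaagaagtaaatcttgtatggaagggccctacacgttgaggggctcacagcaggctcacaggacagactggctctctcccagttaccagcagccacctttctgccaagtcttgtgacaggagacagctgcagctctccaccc
Dio2, chr12:90739039-90739288, minus strand: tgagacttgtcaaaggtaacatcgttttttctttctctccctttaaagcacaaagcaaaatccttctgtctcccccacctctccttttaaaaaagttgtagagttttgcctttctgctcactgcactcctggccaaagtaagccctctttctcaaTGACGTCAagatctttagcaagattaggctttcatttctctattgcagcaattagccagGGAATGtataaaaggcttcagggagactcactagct
Ucp1, chr8:83290098-83290347, plus strand: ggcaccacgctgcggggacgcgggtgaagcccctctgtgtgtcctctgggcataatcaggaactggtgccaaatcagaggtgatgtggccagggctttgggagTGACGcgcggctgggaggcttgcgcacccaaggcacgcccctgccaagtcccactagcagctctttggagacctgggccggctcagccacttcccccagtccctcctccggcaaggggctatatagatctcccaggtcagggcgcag

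The Dio2 window holds TGACGTCA from position -95 to -88 and GGAATG from -36 to -31, counted from the annotated start. The Ucp1 window holds TGACG from -147 to -143, and the Cox8b window holds none of the 5. Among the promoters not printed, that of Prdm16 holds GGAATG at -201 to -196, that of Ppargc1a holds TGACG at -49 to -45 on the opposite strand, and that of Cox7a1 holds none.

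To see what the loss of YAP and TAZ does to this program without the HFD, knockout adipocytes were compared with WT adipocytes on SD. Cidea, Dio2 and Cox8b rose in knockout adipocytes by log2 fold changes of 3.22 to 3.50, and Ucp1, Ppargc1a, Prdm16, Cox7a1 and Cpt1b were not called. Calls needed an adjusted p of 0.05 or less (Benjamini-Hochberg, over the 18800 genes tested by limma) together with a log2 fold change of 0.59 or more in size. Thus 3 of the 8 members that passed the filter on low values (37.5%) were called, against 4.71% of all genes tested, and the median log2 fold change was 0.49 over these members and -0.01 over all genes. Elovl3 did not pass the filter.

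Cidea (ENSMUSG00000024526, chromosome 18, 67343564 to 67367794, plus strand, GRCm38) encodes a protein of lipid droplets that marks brown and beige fat. It had normalized counts of 3 and 12 in the WT and 76 and 86 in the knockout SD libraries (mean and standard deviation 7.5 ± 6.36 against 81 ± 7.07, n = 2 mice each). The groups did not overlap, and the difference between them was several times larger than the spread within either. The log2 fold change on the scale of log2(normalized count + 1), used throughout, was 3.50 (standard error 0.66, 95% confidence interval 2.07 to 4.94, adjusted p = 0.0076). Without WT SD replicate 1, the library with 3 normalized counts, it was 2.65 with an adjusted p of 0.075.

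Dio2 (ENSMUSG00000007682, chromosome 12, 90724554 to 90738438, minus strand) encodes the deiodinase that turns thyroxine into the active hormone inside the cell. It had normalized counts of 37 and 12 in WT and 188 and 226 in knockout adipocytes on SD (24.5 ± 17.7 against 207 ± 26.9, standard deviation, n = 2 each). Both knockout libraries lay far above both WT libraries. The log2 fold change was 3.22 (standard error 0.67, 95% confidence interval 1.76 to 4.68, adjusted p = 0.014), and without WT SD replicate 2, the library with 12, it was 2.45 (adjusted p = 0.20). With either knockout SD library left out, the value was 3.35 or 3.09 and the adjusted p 0.057 or 0.083.

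Cox8b (ENSMUSG00000025488, chromosome 7, 140898945 to 140900446, minus strand) encodes the form of cytochrome c oxidase subunit 8 found in heart, skeletal muscle and brown fat. Its values were normalized counts of 71 and 9 in WT and 236 and 266 in knockout adipocytes on SD (40 ± 43.8 against 251 ± 21.2, standard deviation, n = 2 each). The knockout libraries agreed closely, whereas the WT libraries differed by more than in any other group for this gene on a relative scale. The log2 fold change was 3.23 (standard error 0.68, 95% confidence interval 1.75 to 4.70, adjusted p = 0.015). It fell to 1.80 (adjusted p = 0.090) without WT SD replicate 2, the library with 9, and with either knockout library left out it was 3.31 or 3.14 (adjusted p 0.062 or 0.080).

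Ucp1 (ENSMUSG00000031710, chromosome 8, 83290352 to 83298452, plus strand) had normalized counts of 23 and 18 in WT and 27 and 3 in knockout adipocytes on SD. The WT values lay between those of the knockout libraries, so the groups overlapped. The log2 fold change of -1.01 (standard error 0.86, 95% confidence interval -2.87 to 0.85, adjusted p = 0.61) came from the library with 3 normalized counts, knockout SD replicate 2, without which it was 0.39 (adjusted p = 0.86). The upper end of this interval was below the lower end of that of Cidea.

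Prdm16 (ENSMUSG00000039410, chromosome 4, 154316125 to 154636873, minus strand), a transcriptional regulator that specifies and maintains brown and beige cells, had normalized counts of 227 and 152 in WT and 93 and 69 in knockout adipocytes on SD. It was the member whose knockout libraries both lay under both WT libraries. The log2 fold change of -1.20 (standard error 0.37, 95% confidence interval -2.01 to -0.40) did not pass the limits after adjustment over all genes (adjusted p = 0.099). Ppargc1a (ENSMUSG00000029167, chromosome 5, 51454250 to 51567726, minus strand), the coactivator PGC-1alpha that drives mitochondrial biogenesis, had 181 and 157 in WT and 97 and 201 in knockout adipocytes, with a log2 fold change of -0.27 (95% confidence interval -0.99 to 0.45, adjusted p = 0.75) that turned to 0.25 without knockout SD replicate 1.

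Cox7a1 (ENSMUSG00000074218, chromosome 7, 30184144 to 30186078, plus strand), the heart and muscle form of cytochrome c oxidase subunit 7A, had normalized counts of 15 and 20 in WT and 7 and 30 in knockout adipocytes on SD. As for Ucp1, the WT values lay inside the range of the knockout values (log2 fold change -0.22, 95% confidence interval -1.99 to 1.55, adjusted p = 0.93). Leaving out knockout SD replicate 1, with 7, gave 0.76. Cpt1b (ENSMUSG00000078937, chromosome 15, 89416405 to 89425863, minus strand), the muscle and brown fat form of the enzyme that admits long-chain fatty acids to mitochondria, had 2 and 6 in WT and 9 and 10 in knockout adipocytes, a log2 fold change of 1.19 (adjusted p = 0.66). Exons of Gm44502 on the same strand cover 81.4% of the exon bases of Cpt1b in the GENCODE vM21 annotation, and Gm44502 itself is not listed among the genes measured. Reads shared by overlapping genes were left out by the authors, so the count of Cpt1b is uncertain.

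Without overlap between the groups, 4 of the 8 members tested were higher in knockout adipocytes on SD (Cidea, Dio2, Cox8b and Cpt1b), against 22.8% of all genes, and 1 was lower, against 22.2% (45.0% in either direction). Cpt1b passed the filter on low values, at a mean of 5.375, only through the knockout groups (SD 9.5 and HFD 7.5, against 4 and 0.5 in WT). Its direction in the counts and medians of the members was therefore partly fixed by the filter. At an unadjusted p under 0.05 there were 4 members, the 3 called and Prdm16. When limma tested all 30387 genes with no filter, 3764 genes and 4 members had an unadjusted p under 0.05 on SD. Across 11 alternatives the call of Cidea held in 8, that of Dio2 in 7 and that of Cox8b in 6. All 3 calls were lost without a filter on low values (adjusted p between 0.064 and 0.13), and those of Cidea and Cox8b also in a fit of the SD groups alone (0.058 and 0.10).

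On HFD, the same comparison gave a smaller set. Cox8b rose in knockout adipocytes and was the only member called, 1 of 8 tested (12.5%), while 32.2% of all genes tested were called in this comparison. The share of members called was thus under the background, but 8 members with wide intervals are too few to read this as a shortfall. Of the members, 5 had both knockout libraries above both WT libraries (Cox8b, Cidea, Cox7a1, Cpt1b and Ucp1), against 36.5% of all genes tested, and none had both below, against 33.0% (69.6% in either direction). Cpt1b is among the 5 although it passed the filter only through the knockout groups. The median log2 fold change was 1.29 over the members tested and 0.09 over all genes.

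Cox8b had normalized counts of 84 and 50 in the WT and 458 and 247 in the knockout libraries on HFD. Every knockout library was above every WT library by a wide margin, although the knockout libraries themselves differed. The log2 fold change was 2.36 (standard error 0.68, 95% confidence interval 0.88 to 3.83, limma adjusted p = 0.018). The call held in 7 of 11 alternatives. It was lost when the WT HFD pair counted as 1 sample (2.31, adjusted p = 0.094), without a filter (0.088), without WT HFD replicate 2, the library with 50 (1.99, adjusted p = 0.14), and without knockout HFD replicate 1, the library with 458 (1.91, adjusted p = 0.11).

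Cidea had normalized counts of 41 and 19 in WT and 124 and 62 in knockout adipocytes on HFD. The groups did not overlap, and the log2 fold change of 1.61 (standard error 0.66, 95% confidence interval 0.18 to 3.05) missed the limits with an adjusted p of 0.077. It passed them with a pseudocount of 8 (1.40, adjusted p = 0.037) and after scaling to the same total (1.99, adjusted p = 0.035), a scaling that moved the log2 fold changes of all genes by a median of 0.38 in this comparison.

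Cox7a1 had normalized counts of 27 and 7 in WT and 60 and 37 in knockout adipocytes on HFD (log2 fold change 1.69, 95% confidence interval -0.09 to 3.46, adjusted p = 0.13). Ucp1 had 24 and 16 in WT and 55 and 28 in knockout adipocytes (0.97, 95% confidence interval -0.89 to 2.83, adjusted p = 0.41). For both genes the knockout libraries were the higher ones, but the gap between the groups was smaller than the difference between the libraries within each group. Cpt1b had 1 and 0 in WT and 4 and 11 in knockout adipocytes (2.45, adjusted p = 0.12), values of a few reads at which the fold change depends on the pseudocount.

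Dio2, which was called on SD, had normalized counts of 25 and 65 in WT and 119 and 33 in knockout adipocytes on HFD. The groups overlapped, and the log2 fold change of 0.62 (standard error 0.67, 95% confidence interval -0.83 to 2.08, adjusted p = 0.50) turned to -0.28 without knockout HFD replicate 1 and to -0.05 without WT HFD replicate 1. Ppargc1a had 187 and 179 in WT and 182 and 150 in knockout adipocytes (-0.15, 95% confidence interval -0.87 to 0.57, adjusted p = 0.77). Prdm16 had 117 and 67 in WT and 81 and 86 in knockout adipocytes (-0.08, 95% confidence interval -0.89 to 0.72, adjusted p = 0.88). These regulators differed between the genotypes by less than the spread, and scaling to the same total turned both values positive, to 0.24 and 0.30.

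Elovl3 (ENSMUSG00000038754, chromosome 19, 46131897 to 46135307, plus strand), an elongase of very long fatty acids that cold induces strongly in brown fat, had normalized counts of 0 and 0 in WT and 0 and 2 in knockout adipocytes on SD, and 0 and 0 in WT and 15 and 2 in knockout adipocytes on HFD. Its mean of 2.38 was under the minimum of 5, and 1 library, knockout HFD replicate 1, held most of its reads. When all 30387 genes were tested it was not called (adjusted p = 0.076 on HFD and 0.76 on SD).

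**Figure D2:**
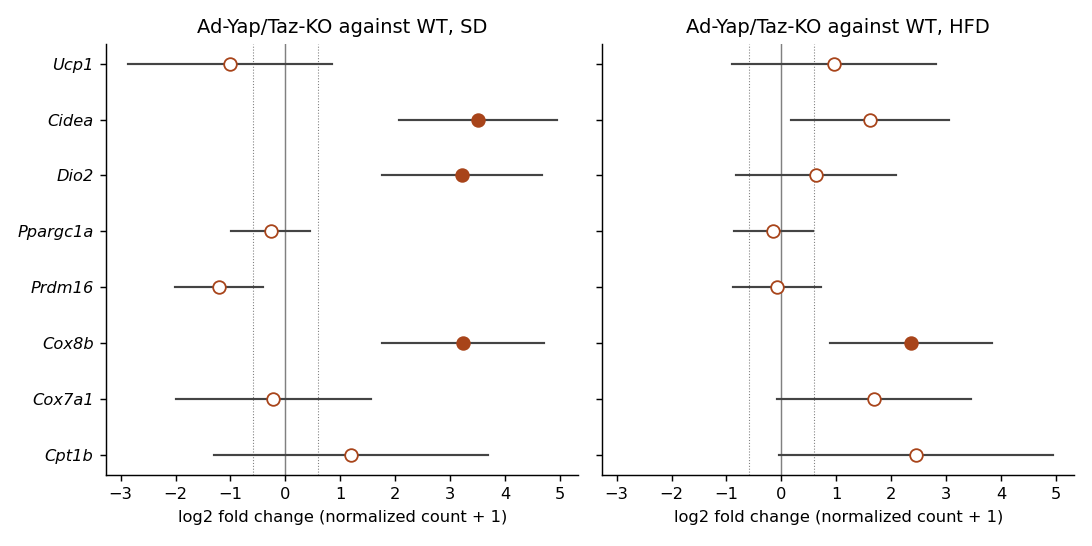
Log2 fold change of knockout against WT adipocytes (x axis, on the scale of normalized count + 1) for the 8 members tested, on SD (left) and on HFD (right). Bars are 95% confidence intervals from limma, filled points are called, and dotted lines mark 0.59 in either direction. Cidea, Dio2 and Cox8b are called on SD and Cox8b on HFD.

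Whether the genotypes differed by another amount on HFD than on SD was tested as an interaction, which called 17.4% of all genes (8.69% positive and 8.73% negative) and none of the 8 members tested, with 1 member at an unadjusted p under 0.05. That member was Dio2, with a difference of -2.60 on the log2 scale (standard error 0.95, 95% confidence interval -4.66 to -0.54, adjusted p = 0.076). Without knockout HFD replicate 1 the value was -3.51 and was called (adjusted p = 0.023). For Cidea the interaction was -1.89 (adjusted p = 0.18), for Cox8b -0.87 (95% confidence interval -2.96 to 1.21, adjusted p = 0.56), for Ucp1 1.98 (adjusted p = 0.27), for Cox7a1 1.90 (adjusted p = 0.27) and for Prdm16 1.12 (adjusted p = 0.15). The rise of Cox8b on SD and on HFD was therefore not shown to differ in size. When limma tested the interaction for all 30387 genes with no filter, 6978 genes and 1 member had an unadjusted p under 0.05. The value of Ucp1 was 3.38 without knockout SD replicate 1, which leaves the library with 3 normalized counts alone in its group.

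In WT mice, HFD against SD gave no call among the members by limma, 0 of 8 tested against 18.0% of all genes, with 2 members at an unadjusted p under 0.05. Those were Cidea, with 3 and 12 normalized counts on SD and 41 and 19 on HFD (log2 fold change 2.01, standard error 0.66, 95% confidence interval 0.57 to 3.44, adjusted p = 0.051), and Prdm16, with 227 and 152 on SD and 117 and 67 on HFD (-1.06, standard error 0.37, 95% confidence interval -1.86 to -0.26, adjusted p = 0.062). In both the diets did not overlap. Without WT SD replicate 2 the value of Cidea was 2.86, and Prdm16 was called by limma after scaling to the same total (-1.47, adjusted p = 0.018). Cox8b, at 71 and 9 on SD and 84 and 50 on HFD, overlapped (1.29, adjusted p = 0.19). Its value depended on which SD library was left out, -0.13 without replicate 2 and 2.72 without replicate 1. Ucp1 and Ppargc1a differed by -0.05 and 0.12 between the diets. Without overlap, 1 member was higher on HFD, against 31.4% of all genes, and 2 were lower, against 33.6% (65.0% in either direction). When limma tested all 30387 genes with no filter, 7076 genes and 2 members had an unadjusted p under 0.05 for the diet in WT mice.

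In knockout mice the diet again called 0 of 8 members tested by limma, against 1.07% of all genes, with 2 at an unadjusted p under 0.05. Ucp1 had 27 and 3 normalized counts on SD and 55 and 28 on HFD (log2 fold change 1.93, standard error 0.86, adjusted p = 0.30). Its groups did not overlap, by a margin of 1 normalized count, and without knockout SD replicate 1 the value was 3.33. Dio2 had 188 and 226 on SD and 119 and 33 on HFD (-1.70, standard error 0.67, adjusted p = 0.25). Cidea, Cox8b and Prdm16 had log2 fold changes of 0.12, 0.42 and 0.06. Without overlap, 2 members were higher on HFD (Ucp1 and Cox7a1), against 22.7% of all genes, and 1 was lower, against 19.3% (42.0% in either direction). When limma tested all 30387 genes with no filter, 3569 genes and 0 members had an unadjusted p under 0.05 for the diet in knockout mice.

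Several members belong to gene families, which include general forms such as Cox8a and Cpt1a and relatives with other functions such as Ucp2. The share of the thermogenic member in its family was computed from values per kb of exon in each library. Cox8b made up 4.13% and 0.692% of the summed Cox8a and Cox8b values per kb in WT adipocytes on SD and 13.7% and 10.9% in knockout adipocytes on SD. On HFD the shares were 3.44% and 2.36% in WT and 20.2% and 18.0% in knockout adipocytes. The genotypes did not overlap on either diet, and the general form Cox8a was not called (log2 fold change 0.30 on SD and -0.63 on HFD, adjusted p = 0.57 and 0.054). Cox7a1 made up 19.2% and 16.4% of Cox7a1 and Cox7a2 in knockout adipocytes on HFD, against 8.28% and 2.58% in WT. On SD its shares were 2.82% and 10.6% in knockout and 8.16% and 11.5% in WT adipocytes, which overlapped.

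Cidea stayed a small part of its family, since Cidec, the lipid droplet protein of white adipocytes, was far more abundant. Its share of the 3 CIDE genes per kb was 0.0203% and 0.0644% in WT and 0.549% and 0.486% in knockout adipocytes on SD, and 0.127% and 0.0572% in WT and 0.912% and 1.36% in knockout adipocytes on HFD. On HFD the share combined a Cidea that was not called with a Cidec that fell, from 53794 and 55262 to 22406 and 7501 normalized counts (log2 fold change -2.07, standard error 0.37, adjusted p = 0.00098). Ucp1 had 4.41% and 0.631% of the 3 uncoupling protein genes per kb in knockout adipocytes on SD, against 7.80% and 6.52% in WT, and 4.95% and 2.83% against 4.60% and 2.91% on HFD. Ucp2, an uncoupling protein relative not known for heat production and expressed in immune cells as well, rose in knockout adipocytes on both diets. Its values were 810 and 920 in WT and 2277 and 1627 in knockout adipocytes on SD (log2 fold change 1.16, standard error 0.17, adjusted p = 0.0015), and 1098 and 1136 against 3688 and 3736 on HFD (1.73, standard error 0.17, adjusted p = 1.3e-05), and both calls held in all 11 alternatives.

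**Figure D3:**
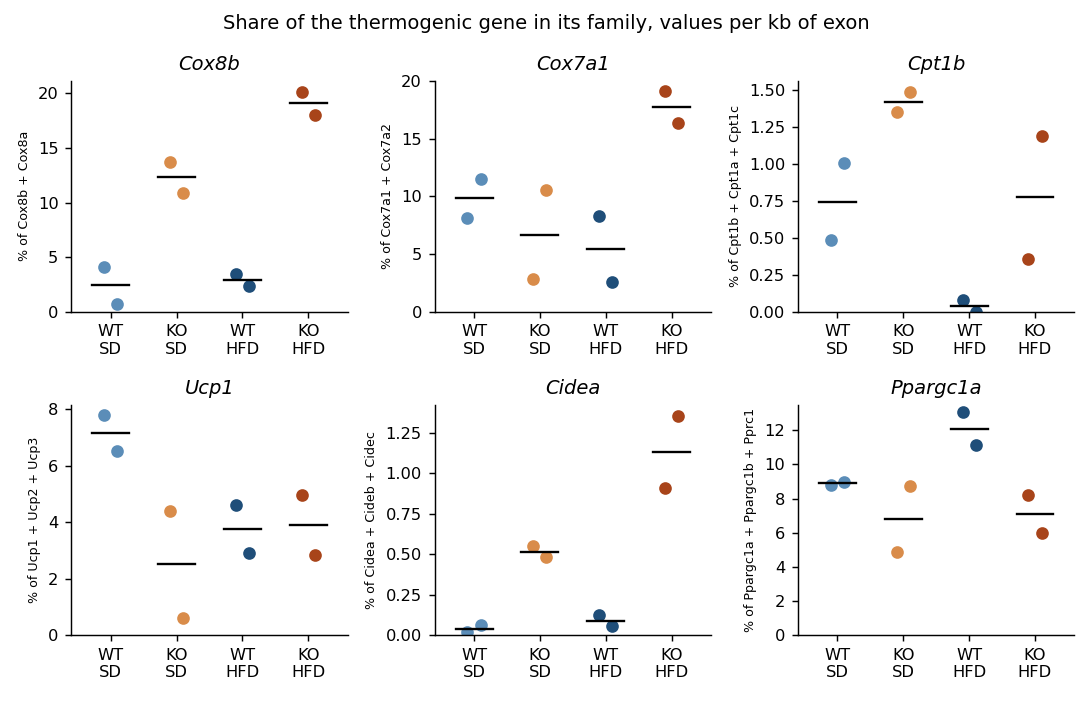
Share (%, y axis, a separate scale for each panel) of the thermogenic gene in the summed values per kb of exon of its family, in each of the 8 libraries. Points are libraries and lines are group means. The share of Cox8b lies between 10.9% and 20.2% in the 4 knockout libraries and between 0.692% and 4.13% in the 4 WT libraries.

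Of the 21 relatives of the members, 17 were tested. In knockout against WT adipocytes on HFD, 3 rose (Ucp2, Cpt1c and Pprc1) and 2 fell (Cidec and Elovl6), with a median log2 fold change of 0.19. Over all genes tested, 17.1% rose and 15.1% fell in this comparison, and 3.21% rose and 1.50% fell on SD, the background for each list. The call of Cpt1c was lost without either WT HFD library (adjusted p 0.052 and 0.056) without knockout HFD replicate 2 (0.15), and when the WT HFD pair counted as 1 sample (0.057). Elovl6, which elongates palmitate in lipogenic cells, fell from 1087 and 999 to 106 and 144 normalized counts (log2 fold change -3.07, standard error 0.24, adjusted p = 1.5e-06), and on SD from 390 and 438 to 145 and 198 (-1.28, standard error 0.24, adjusted p = 0.0067; 0.10 without WT SD replicate 2). Pprc1, the third coactivator of the PGC-1 family, had 921 and 960 in WT and 1497 and 1857 in knockout adipocytes on HFD (0.83, adjusted p = 0.0025), whereas Ppargc1a was not called. On SD 1 relative rose (Ucp2) and 1 fell (Elovl6). In WT mice, the diet raised Ucp3, Elovl6, Cox7a2 and Cpt1a and lowered Dio3, which had 10 and 16 normalized counts on SD and was listed at 0 in both HFD libraries. Dio3 passed the filter at a mean of 5.25, which rested on the WT SD libraries (mean 13, against 5 or less in the other groups). Its fall was therefore partly fixed by the filter. Cpt1a, the general form of the enzyme whose muscle form is Cpt1b, went from 844 and 1209 on SD to 2723 and 2626 on HFD (1.40, standard error 0.19, adjusted p = 0.00073) and was called in all 11 alternatives. Of the other calls of relatives by diet in WT mice, those of Ucp3 and Elovl6 held in 8 of 11 and those of Cox7a2 and Dio3 in 5. When the WT HFD pair counted as 1 sample, only Cpt1a among the relatives was called, and scaling to the same total gave 3 calls higher and 4 lower.

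Heat can also be made without Ucp1, by futile cycling of creatine, calcium or lipid. Of 12 genes of such cycles, all tested, 4 rose in knockout adipocytes on HFD (Gatm, Slc6a8, Ckb and Ryr1) and 1 fell (Gamt), with a median log2 fold change of 0.74. Gatm, the first enzyme of creatine synthesis, went from normalized counts of 8 and 17 in WT to 261 and 360 in knockout adipocytes (log2 fold change 4.59, standard error 0.43, adjusted p = 7.0e-06). On SD it had 117 and 178 in WT and 165 and 100 in knockout adipocytes, so that the WT HFD libraries were the group that stood apart. Slc6a8, the creatine transporter, had 293 and 309 in WT and 1610 and 1240 in knockout adipocytes on HFD (2.23, standard error 0.20, adjusted p = 4.4e-06). On SD it rose from 330 and 382 to 949 and 754 (1.25, standard error 0.20, adjusted p = 0.0021).

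Ckb, creatine kinase B, had normalized counts of 709 and 633 in WT and 2642 and 2143 in knockout adipocytes on HFD (log2 fold change 1.83, standard error 0.16, adjusted p = 4.9e-06), and 758 and 780 against 1955 and 1725 on SD (1.25, standard error 0.16, adjusted p = 0.00056). The calls of Gatm on HFD and of Slc6a8 and Ckb on both diets held in all 11 alternatives. Gamt, the second enzyme of creatine synthesis, named after its values were seen, had 296 and 278 in WT and 124 and 60 in knockout adipocytes on HFD (-1.72, adjusted p = 0.0021). The enzymes of creatine synthesis thus moved in opposite directions on HFD. The call of Ryr1, a calcium release channel known from skeletal muscle, held in 5 of 11 alternatives and was lost without knockout HFD replicate 2 (1.27, adjusted p = 0.28), without either WT HFD library and with these as 1 sample (0.12). On SD 2 of the 12 genes rose, Slc6a8 and Ckb, and none fell.

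Adrenergic input starts the thermogenic program in brown fat. Of 11 genes from receptors to kinases, none was called on SD by limma, and on HFD 5 fell in knockout adipocytes (Adrb3, Prkar2b, Prkaca, and, named after their values were seen, Pde3b and Gnas) and 1 rose (Adcy3), with a median log2 fold change of -0.84. Adrb3, the beta-3 receptor of adipocytes, had normalized counts of 4696 and 4825 in WT and 2756 and 1117 in knockout adipocytes on HFD (-1.44, standard error 0.31, adjusted p = 0.0036), and 6070 and 4375 against 3737 and 4557 on SD (-0.32, adjusted p = 0.67). Scaled to the same total, 3 of these genes were called lower and 3 higher, with Pde3b and Gnas no longer called. The call of Pde3b was also lost when the WT HFD pair counted as 1 sample (adjusted p = 0.10). The call of Adcy3 was lost without WT HFD replicate 2 (adjusted p = 0.055), and that of Prkaca without knockout HFD replicate 2, where its log2 fold change was -0.58. The sum of adipocyte markers fell in the same HFD libraries, with 7 of its 8 genes called lower, and its part in these results was not tested.

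Among 14 regulators of the brown and beige program that were tested, of 16, 2 rose in knockout adipocytes on HFD (Zfp516 and Klf11) and 3 fell (Pparg, Nrip1 and, named after its values were seen, Tle3). Pparg, the master regulator of fat cells, had normalized counts of 4129 and 4020 in WT and 1819 and 1523 in knockout adipocytes (log2 fold change -1.29, standard error 0.17, adjusted p = 0.0001). Nrip1, a corepressor that restrains thermogenic genes, had 11529 and 12347 in WT and 5835 and 4125 in knockout adipocytes (-1.28, standard error 0.24, adjusted p = 0.0014). Zfp516, a factor that acts with Prdm16, had 607 and 703 against 1409 and 1434 (1.12, standard error 0.17, adjusted p = 0.00032). The calls of Pparg, Nrip1 and Zfp516 held in all 11 alternatives. That of Tle3 was lost when the WT HFD pair counted as 1 sample (adjusted p = 0.075) and after scaling to the same total (0.15). That of Klf11 held in 5 of 11 alternatives and was lost, among others, without each of the 4 HFD libraries (adjusted p 0.061 to 0.13). On SD, 1 regulator rose and 2 fell, all named after their values were seen. Esrrg, an estrogen-related receptor of oxidative tissues, went from 9 and 10 to 53 and 55 (2.39, adjusted p = 0.013), Irf4 from 1946 and 1301 to 723 and 871 (adjusted p = 0.046) and Foxc2 from 34 and 54 to 9 and 2 (-3.00, adjusted p = 0.035). When the WT HFD pair counted as 1 sample, Irf4 and Foxc2 were not called (adjusted p = 0.10 and 0.063).

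Of 8 beige adipocyte markers tested, of 11, 1 rose in knockout adipocytes on HFD (Tmem26) and 3 fell (Pm20d1, Kcnk3 and Slc36a2). None was called on SD by limma. Kcnk3, a potassium channel, had normalized counts of 686 and 591 in WT and 244 and 197 in knockout adipocytes on HFD (log2 fold change -1.53, standard error 0.25, adjusted p = 0.00057). In WT adipocytes on SD it had 94 and 84, so that in WT mice the diet raised it (2.83, standard error 0.25, adjusted p = 5.4e-05). Slc36a2, an amino acid transporter, had 2407 and 2595 in WT and 1532 and 873 in knockout adipocytes on HFD (-1.11, adjusted p = 0.0021). Tmem26 had 2 and 0 in WT and 24 and 41 in knockout adipocytes, and its call held in 7 of 11 alternatives. It was lost, with adjusted p-values of 0.10 and 0.11, without WT HFD replicate 2 and without knockout HFD replicate 2, and also when the WT HFD pair counted as 1 sample (0.068). Pm20d1, at 184 and 182 against 9 and 9, held in 6. Its adjusted p was 0.074 when the WT HFD pair counted as 1 sample and between 0.054 and 0.072 without either WT HFD library or knockout HFD replicate 2.

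Of 12 genes of fuel supply that were tested, of 13, 2 rose (Acot11 and Pdk4) and 2 fell (Acot2 and Acadm) in knockout adipocytes on HFD, with a median log2 fold change of 0.06. Scaling to the same total gave 4 calls higher and none lower by limma, and when the WT HFD pair counted as 1 sample Pdk4 alone was called. Pdk4, the kinase that shifts mitochondria from glucose to fatty acids, had normalized counts of 1950 and 1982 in WT and 5406 and 4630 in knockout adipocytes (1.35, standard error 0.15, adjusted p = 2.4e-05). The other 3 calls held in 5 to 7 of 11 alternatives, and each was lost without knockout HFD replicate 2 (adjusted p 0.10 to 0.16) and without WT HFD replicate 2 (0.071 to 0.11). On SD Acot2 was the only one of the list called, a fall that was lost without either WT SD library (adjusted p = 0.063 and 0.22) and without knockout SD replicate 1 (0.082).

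White adipocyte markers fell on HFD in 5 of 8 (Lep, Wfdc21, Retn and, named after their values were seen, Slc7a10 and Hoxc8), and Tcf21 rose. Lep, the hormone leptin, had normalized counts of 72885 and 73642 in WT and 7257 and 1545 in knockout adipocytes on HFD (log2 fold change -4.45, standard error 0.52, adjusted p = 4.0e-05), and 10493 and 19324 against 6932 and 10784 on SD (-0.72, adjusted p = 0.54). None of the 8 was called on SD by limma. The call of Wfdc21 was lost without WT HFD replicate 1 (adjusted p = 0.066) and without knockout HFD replicate 2 (0.051), and that of Hoxc8 when the WT HFD pair counted as 1 sample (0.059).

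The diet comparisons of these lists were read in the same way, and the genes outside the rule for named genes were named after their values were seen. In WT mice on HFD against SD, 2 adrenergic genes rose (Prkaca and Prkar2b), 1 regulator rose (Esrrg) and 2 fell (Irf4 and Cebpb), 3 beige markers rose (Kcnk3, Slc36a2 and Otop1), 2 heat cycle genes rose (Gamt and Gk) and 1 fell (Gatm), 5 genes of fuel supply rose (Cpt2, Acadl, Acadm, Hadha and Hadhb), and 2 white markers rose (Lep and Slc7a10) and 2 fell (Agt and Tcf21). Among cell type markers in the same comparison, 8 of 8 macrophage, 3 of 6 endothelial and 3 of 7 fibroblast and progenitor markers fell and 0 rose. Of 8 adipocyte markers, 1 rose and 1 fell. The part of these cells in the list values was not tested. Over all genes 8.74% rose and 9.22% fell. Many of these calls depended on the WT HFD libraries and the scaling. When the WT HFD pair counted as 1 sample, 5 of the 25 calls in the lists, relatives included, held (Cpt1a, Irf4, Esrrg, Kcnk3 and Gatm). After scaling to the same total, which moved the log2 fold changes of all genes by a median of -0.41 in this comparison, 15 of the 25 held, no gene of fuel supply and no heat cycle gene was called higher by limma, and 5 regulators were called lower. In knockout mice the diet raised Ucp2, Adcy3, Ryr2 and Pdk4 and lowered Agt, and no regulator or beige marker was called by limma, while 0.383% of all genes rose and 0.691% fell. Of these 5 calls, that of Pdk4 alone held when the WT HFD pair counted as 1 sample (0.099 to 0.11 for the adjusted p of the others), and those of Ucp2 and Adcy3 held in 5 of 11 alternatives.

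**Figure D4:**
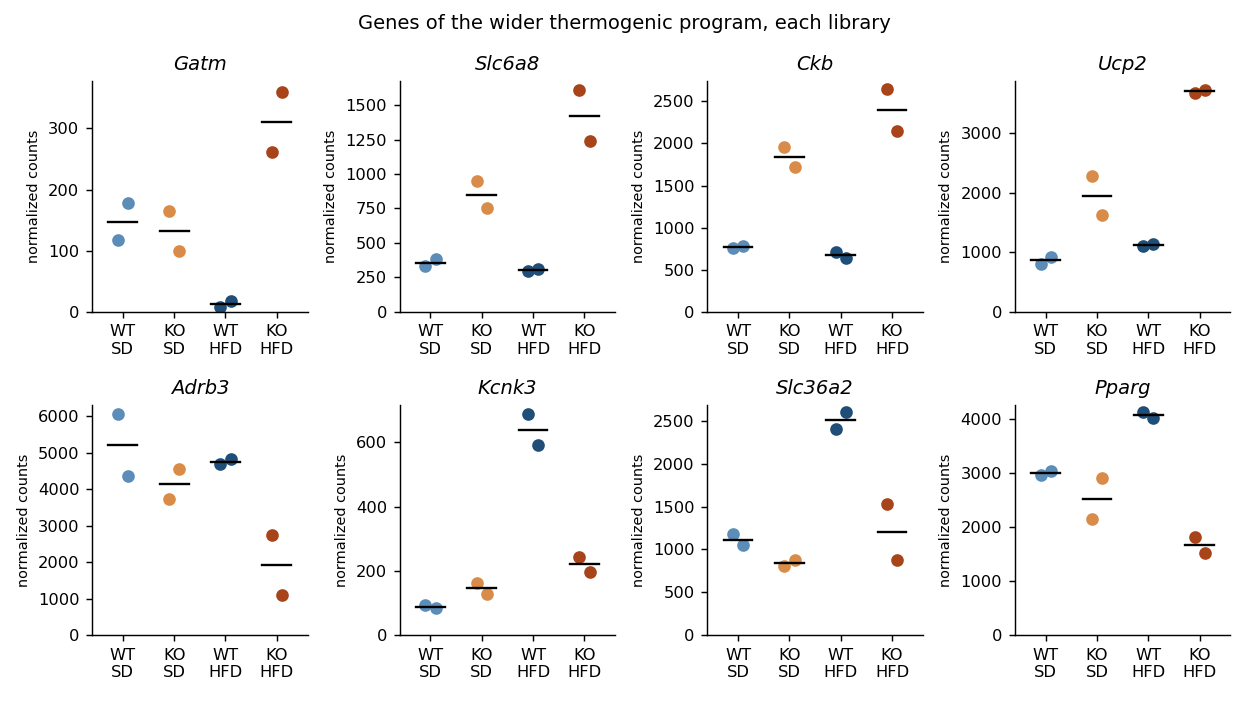
Normalized counts (y axis, linear, a separate scale for each gene) of 8 genes of the wider program in each of the 8 libraries. Points are libraries and lines are group means. Slc6a8, Ckb and Ucp2 are higher in all 4 knockout libraries than in all 4 WT libraries, and Gatm is at 17 or lower in the WT HFD libraries alone.

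Cox8b, Cox7a1 and Cpt1b are also genes of skeletal muscle, and the list of 12 muscle markers was therefore read beside them. The 12 markers summed to 547 and 496 normalized counts in WT against 1860 and 2686 in knockout adipocytes on SD, and to 797 and 793 against 671 and 683 on HFD. Of the 9 tested, 1 was called higher on SD (Acta1), and 1 higher (Tnnt3) and 2 lower (Myh1 and Acta1) on HFD, named after their values were seen. The HFD calls were lost when the WT HFD pair counted as 1 sample. After the values were seen, the list was also read without its most abundant genes, and the 10 markers other than Acta1 and Ttn summed to between 49 and 148 normalized counts, with no gene above 44 in any library, and the ranges of the genotypes overlapped within each diet (67 to 130 in WT and 100 to 107 in knockout adipocytes on SD, 49 to 73 and 71 to 148 on HFD, where the highest WT sum of 73 was above the lowest knockout sum of 71). Acta1, skeletal actin, singled out after its values were seen, had 97 and 101 in WT and 1359 and 2207 in knockout adipocytes on SD, and 376 and 445 against 334 and 66 on HFD. Ttn lay between 266 and 469 in every library. The part of muscle RNA in the values of Cox8b, Cox7a1 and Cpt1b was not tested.

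Macrophage markers moved with the genotype as well. Their sum was normalized counts of 4324 and 4305 in WT and 25888 and 14394 in knockout adipocytes on SD, with 7 of 8 markers called higher, and 1978 and 2013 against 26714 and 25308 on HFD, with 8 of 8 called higher. Fibroblast and progenitor markers summed to 34273 and 28206 against 49658 and 31671 on SD, with none of 7 called by limma, and to 21210 and 21567 against 67602 and 75556 on HFD, with 5 of 7 called higher. The part of these cells in the values of the thermogenic genes was not tested. Endothelial markers had no call on SD and 2 of 6 higher on HFD (5 after scaling to the same total, none by limma when the WT HFD pair counted as 1 sample), mesothelial markers no call on SD and 1 higher and 1 lower of 5 on HFD, smooth muscle markers no call on SD and 2 higher and 1 lower of 5 on HFD, and lymphocyte markers no call on SD and 1 higher of 3 tested on HFD. Counting the WT HFD pair as 1 sample also lost the smooth muscle calls higher and the mesothelial call lower on HFD. Of 6 markers of epididymis and testis, 3 had a line in the table and none had a mean of 5.

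**Figure D5:**
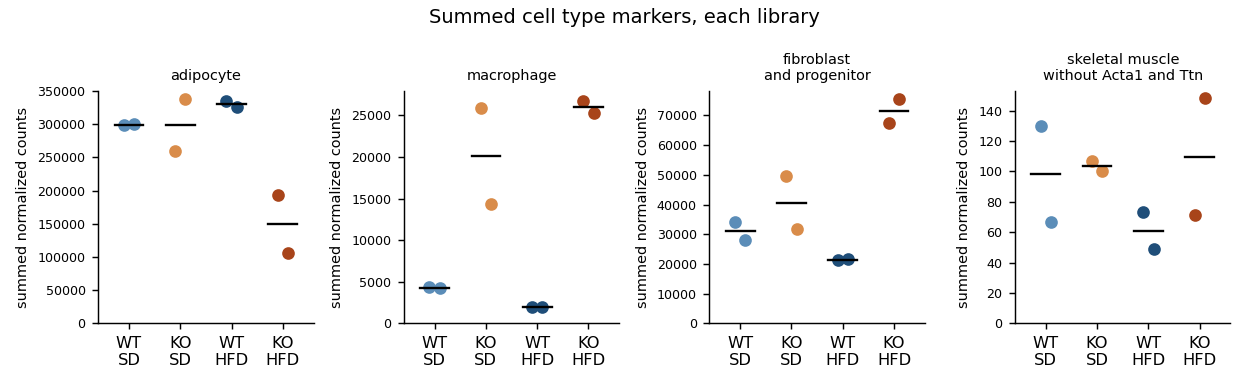
Summed normalized counts (y axis, linear, starting at 0, a separate scale for each panel) of the markers of adipocytes, macrophages, fibroblasts and progenitors, and skeletal muscle without Acta1 and Ttn, in each library. Points are libraries and lines are group means. The macrophage sum is between 14394 and 26714 in the knockout libraries and at 4324 or lower in the WT libraries, and the muscle sum stays at 148 or lower.

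For each member tested, the gene whose log2(normalized count + 1) followed it most closely over the 8 libraries was sought among about 12092 genes whose mean was 50 normalized counts or more. This is a description of libraries that fall into 4 groups, in which any pair of genes with a common group difference scores high. For Cidea it was Gm28438 (Pearson r = 0.99), with normalized counts of 25 and 39 in WT and 125 and 142 in knockout adipocytes on SD, and 97 and 57 against 145 and 101 on HFD. For Cox8b it was C330027C09Rik (r = 0.98), for Dio2 Fam171a2 (0.97) and for Prdm16 Gm43259 (0.96). For Ucp1, the closest gene was Polr2l (0.96), a polymerase subunit whose lowest value, 41 against 83 to 125 elsewhere, was in the library in which Ucp1 was at 3. Ppargc1a was closest to Cryzl1 (0.96), Cox7a1 to Cdk4 (0.94) and Cpt1b to Zyx (0.98).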

How the data were processed

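RNA-seq was done on isolated epididymal white adipocytes in 8 libraries, 2 for each combination of genotype and diet, and the sample labels gave the groups. The authors trimmed reads with Reaper, aligned them to mm10 (GRCm38) with STAR 2.5.2b and counted them on exons with featureCounts 1.5.1 of Subread, leaving out reads over several genes or sites, and tested with DESeq2 1.14.1 (tool versions per the submitters' processing notes, which also name FastQC). Whether the counting used strand is not given in the sources used here. The values deposited by the authors are treated as a score: counts scaled with 1 size factor for each library, then rounded to whole numbers. Where 1 read was worth less than 1, rounding merged different read numbers, so whole reads were not recovered and no count test was run. No per-sample column was left unused (0).

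The value of 1 read was estimated from which whole numbers below 600 occur, with a largest error of 1.6e-05 in 8 simulated libraries. Reads carry no molecular identifiers, so the limit of 3 counts for a 0 covers counting error only. Precision was limited by 2 libraries a group, and p-values measure the spread between these libraries.

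Genes with a mean of at least 5 (18800 of 30387) were tested with limma 3.58.1 in R 4.3.3 (lmFit, eBayes with trend) on log2(value + 1), a pseudocount of 1, with 4 group means in 1 fit, 4 residual and 8.59 prior degrees of freedom. All adjusted p-values are Benjamini-Hochberg adjusted over the genes tested, and two-sided. The limits for a call, 0.05 and 0.59, follow the study's methods. On simulated data for the comparison on HFD (18622 genes, 200 changed), 155 changed genes were recovered with 0 in the wrong direction and 6 false calls. Of those changed by at least 2 on the log2 scale, 84 of 84 with a mean of at least 50 and 42 of 50 below it were recovered. The simulation added the same log2 spread to every gene and group. The members had standard errors from 0.33 (Ppargc1a) to 1.15 (Cpt1b), and the groups differed in spread. These shares therefore do not give the power for the members. Values per kb used the exon bases of GENCODE vM21, in which 30259 of the identifiers were found. The other steps used Python 3.11.15 with numpy 2.4.6, pandas 2.3.3 and matplotlib 3.10.9.

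The members, gene lists and tests were chosen with earlier results of these data known. The genes named are the 9 members, Yap1 and Wwtr1, up to 4 called genes a list with the largest change on HFD, all relatives of the members, and for each member tested the gene most like it. Alternatives were a pseudocount of 0.5 or 8, no filter, scaling to the same total, only the groups compared, the replicate number as a block, the WT HFD libraries as 1 sample, and leaving out each library. With a library left out or the WT HFD libraries as 1 sample, 1 group holds a single sample. The spread in those fits comes from the other groups, and their calls say nothing of the spread within that group. The use of the alternatives for the list genes was added after seeing the data. The result of 1 list gene is not reported here.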

Additional observations from a re-analysis of the deposited data

Results flagged for a closer look

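No group had the 4 samples needed to look for a single library far from the others, and every value came from the main measurement. What stood out were genes on which the knockout acted differently by diet, by limma's test of the interaction over all genes. None of the thermogenic genes passed it (1 at an unadjusted p under 0.05), but genes of the lists around them did. Of those given here, 8 outside the rule for named genes were named after their values were seen (Gnas, Pde3b, Irf4, Esrrg, Gamt, Acadl, Slc7a10 and Hoxc8). Cell type markers were called in this interaction as well. Of 8 adipocyte markers 6 were negative and 0 positive, and the positive ones were 8 of 8 macrophage, 6 of 7 fibroblast and progenitor and 5 of 6 endothelial markers, with 0 negative. The adipocyte and endothelial calls were lost when the WT HFD pair counted as 1 sample. The part of cell types in the list values was not tested.

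Gatm, the first enzyme of creatine synthesis, had the largest value, 4.76 on the log2 scale, and other positive values given here were Cpt1c at 2.86, Tcf21 at 1.98, Irf4 at 1.19, Slc6a8 at 0.98 and Pdk4 at 0.93, where a positive value means a more positive effect of the knockout on HFD than on SD. Negative values were found for Lep at -3.73, Esrrg at -2.34, Kcnk3 at -2.24, Cidec at -1.98, Gamt at -1.89, Slc7a10 at -1.82, Elovl6 at -1.78, Retn at -1.40, Hoxc8 at -1.33, Nrip1 at -1.31, Prkar2b at -1.29, Prkaca at -1.19, Pde3b at -1.12, Pparg at -1.03, Cox7a2 at -0.98, Cpt1a at -0.85, Acadl at -0.78 and Gnas at -0.66. When the WT HFD pair counted as 1 sample, Gatm and Kcnk3 alone held. Among the 16 genes of the rule, the interactions of Gatm and Kcnk3 were called in all 14 alternatives, and those of Elovl6, Lep and Pdk4 in 12, 11 and 10. The other 11 were called in 3 to 8 of 14, among them Cpt1a, at -0.42 (adjusted p = 0.26) after scaling to the same total. Without WT SD replicate 1, the adjusted p was 0.062 for Lep and 0.052 for Elovl6.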

How the results depend on the processing

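The counts of members and of all genes called moved with several choices. For knockout against WT on HFD, 1 member was called and this became 2 with a pseudocount of 8 or with scaling to the same total (Cox8b and Cidea) and 0 by limma without a filter or when the WT HFD pair counted as 1 sample (2 and 1 at an unadjusted p under 0.05). Leaving out 1 library gave 0 to 1. On SD, 3 members were called, 0 by limma without a filter (4 at an unadjusted p under 0.05), 1 in a fit of only the SD groups, and 1 to 2 with a library left out. In WT mice on HFD against SD, no member was called by limma (2 at an unadjusted p under 0.05), 1 with scaling to the same total (Prdm16), and 0 to 1 with a library left out. Leaving out libraries gave 0 to 1 also for the diet in knockout mice and for the interaction.

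Over all genes, the WT HFD libraries as 1 sample gave 3445 calls on HFD in place of 6053, 539 in place of 3377 for the diet in WT mice, 28 in place of 202 for the diet in knockout mice and 517 in place of 3274 for the interaction. No filter gave 438 on SD in place of 886, and 1701, 3 and 721 for the diet in WT, the diet in knockout mice and the interaction. Fitting only the groups compared gave 461 on SD and 0 by limma for the diet in knockout mice (2059 at an unadjusted p under 0.05), and a pseudocount of 8 gave 330 there. With a library left out the counts were 3629 to 5837 on HFD, 381 to 778 on SD, 628 to 1400 for the diet in WT mice, 14 to 961 for the diet in knockout mice and 530 to 4249 for the interaction. After scaling to the same total, calls on HFD were 4617 higher and 1367 lower, in place of 3213 and 2840, and calls by diet in WT mice were 470 higher and 3567 lower, in place of 1643 and 1734. For the interaction these were 2610 and 619, in place of 1633 and 1641. The cause was not tested.

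The replicate number as a block left the number of members called at 1 on HFD, 3 on SD and 0 elsewhere, and gave 5706, 720, 2935, 112 and 2568 calls over all genes in the order HFD, SD, diet in WT, diet in knockout and interaction. Deviations of libraries with the same number correlated between -0.11 and 0.040 over genes. No common shift by replicate number was seen, though a weak pairing could go unseen in this check.

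Of the log2 fold changes of the members under the alternatives, 419 kept their direction and side of the limits, 16 lost and 8 gained a call, and 21 changed sign, all of values that were not called. Scaling to the same total turned Ppargc1a (0.24) and Prdm16 (0.30) on HFD and Ppargc1a for the diet in WT mice (-0.29). With 1 library left out, the values that turned ranged, on HFD, from -0.28 to 1.53 for Dio2 and -0.48 to 0.31 for Prdm16, and on SD from -0.79 to 0.25 for Ppargc1a, -1.20 to 0.76 for Cox7a1 and -2.42 to 0.39 for Ucp1. By diet in WT mice the ranges were -0.33 to 0.23 for Ucp1, -0.13 to 2.72 for Cox8b and -1.20 to 0.61 for Cox7a1. By diet in knockout mice they were -0.28 to 0.76 for Ppargc1a, -0.15 to 0.27 for Prdm16, -0.38 to 0.61 for Cidea, -0.021 to 0.87 for Cox8b and -1.07 to 0.19 for Cpt1b, and for the interaction -2.30 to 0.55 for Cox8b and -0.40 to 0.64 for Ppargc1a. Of the calls of named list genes under the alternatives, 563 held and 211 were lost, and none changed sign. Cpt1b and Elovl3 had few or no reads in most libraries, and the part of depth in their lack of calls was not tested.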
